A study of Mus musculus with 15 samples.

Results

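Cholesterol esterification and lipoprotein genes were followed in the livers and lungs of mice fed phytosterols (PS), plant sterols that resemble cholesterol. The members were the 10 of the 54532 genes in the count tables whose gene name was Soat1, Soat2, Lcat, Apob, Mttp, Apoa1, Apoa4, Apoe, Lipc or Pltp. RNA was sequenced from 9 male wild-type mice of the inbred strain C57BL/6J. The CS group received the control diet and the PS group the same diet with 2% phytosterols, without any other treatment or gene alteration in either group. There were 4 CS and 5 PS livers and 3 CS and 3 PS lungs, and 6 of the mice gave both tissues. The labels give an age of 28 weeks for every animal, while the times of purchase, adaptation and feeding in the methods add up to 34 weeks. Counts per library totalled 14410117 to 17625179 in the liver and 17934930 to 19396057 in the lung.

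Cells store surplus cholesterol as esters, which the enzymes encoded by Soat1 and Soat2 make inside the cell and the enzyme encoded by Lcat makes on lipoproteins in plasma. Hepatocytes package esters and triglycerides with apolipoprotein B, encoded by Apob, into very-low-density lipoprotein, and the transfer protein encoded by Mttp loads the lipid during assembly. Apolipoproteins A-I, A-IV and E move between particles, and hepatic lipase (Lipc) and phospholipid transfer protein (Pltp) remodel the particles in the circulation. Soat2 is known as the form of hepatocytes and enterocytes and Soat1 as the form of macrophages and many other cells.

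The members had very different levels in the tissues, and their promoter sequences are shown for 4 of them: Soat1, which was higher in the lung, Pltp, whose ranges overlapped between the tissues, and Apob and Lipc, which were far higher in the liver. Promoters of 9 of the 10 members were matched by symbol in RefSeq on GRCm38.p6, and the missing entry was Soat2. Each run below holds the 250 bases before a start site, read 5′ to 3′ on the strand of the gene, and capitals mark a searched motif. For Lipc the outer of the 2 start sites in the table is shown.
Soat1: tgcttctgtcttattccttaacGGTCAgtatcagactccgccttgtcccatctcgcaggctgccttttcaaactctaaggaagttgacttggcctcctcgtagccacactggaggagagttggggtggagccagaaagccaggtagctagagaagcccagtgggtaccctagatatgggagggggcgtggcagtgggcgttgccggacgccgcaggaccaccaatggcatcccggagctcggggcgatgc
Apob: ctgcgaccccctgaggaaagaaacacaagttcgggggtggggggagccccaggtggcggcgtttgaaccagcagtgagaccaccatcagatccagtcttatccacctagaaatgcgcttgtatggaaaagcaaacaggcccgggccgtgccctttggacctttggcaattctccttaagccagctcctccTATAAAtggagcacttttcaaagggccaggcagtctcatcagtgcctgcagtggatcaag
Pltp: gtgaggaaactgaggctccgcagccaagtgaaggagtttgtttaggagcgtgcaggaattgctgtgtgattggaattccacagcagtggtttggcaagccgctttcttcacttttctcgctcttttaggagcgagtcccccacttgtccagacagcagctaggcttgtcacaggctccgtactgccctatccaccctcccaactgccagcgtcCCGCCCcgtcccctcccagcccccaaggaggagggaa
Lipc: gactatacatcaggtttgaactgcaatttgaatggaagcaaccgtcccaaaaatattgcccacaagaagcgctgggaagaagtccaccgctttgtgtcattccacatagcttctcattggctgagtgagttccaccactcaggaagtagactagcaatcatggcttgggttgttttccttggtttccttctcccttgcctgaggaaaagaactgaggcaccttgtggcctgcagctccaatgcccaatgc
The Soat1 run is at chr1:156474329-156474578 on the minus strand and reaches 3 bases into an annotated exon. That of Apob is at chr12:7977427-7977676 on the plus strand with 29 exon bases. That of Pltp is at chr2:164857709-164857958 on the minus strand with 3 exon bases, and that of Lipc at chr9:70952222-70952471 on the minus strand with 5. The motifs were searched on both strands and no matches overlapped within these 4 runs. The letters GGTCA, the core of many nuclear receptor sites, stood once in the Soat1 run and in 35.24% of the 32851 promoters of the table. The TATA box letters TATAAA stood once in the Apob run and in 12.37% of all promoters. The GC box letters GGGCGG stood once in the Pltp run, on the other strand (CCGCCC), and in 32.74% of all promoters. The letters GTTAAT, CAAAGTCCA and TCACNCCAC, which stand in 6.43%, 0.38% and 1.05% of all promoters, were in none of the 4 runs, and the Lipc run held no searched motif. The inner start site of Lipc, not printed, held GGGCGG once and GGTCA 3 times.

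Lung and liver were compared to see where each member is transcribed. Of the 10 members, 8 were lower in the lung and 1, Soat1, was higher (adjusted p under 0.05, edgeR quasi-likelihood test over all 15 libraries with Benjamini-Hochberg adjustment). Across the 17696 genes tested, 34.4% were lower and 42.3% higher in the lung by the same rule. Apoa4 and Lipc, 2 of the 8, were under the filter on low counts in the lung and entered the fit through the liver, where they are high, so they had to differ and count for nothing in this share. The median difference of the 10 members, those 2 included, was −8.31 on the log2 scale, against 0.17 for all genes, as a description. Levels between the tissues are given in CPM, counts relative to the library size, after TMM scaling over all libraries, which sets the bulk of the genes equal between libraries. With plain library totals the median of all genes moved to 1.55 and with DESeq2's size factors to 0.31, and the members moved with it. In bulk tissue, fewer cells of a type and less RNA per cell cannot be told apart.

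Soat1 ranged from 1.80 to 6.06 CPM over the 9 livers and from 51.1 to 102 CPM over the 6 lungs. The tissues did not overlap, and in each of the 6 mice with both tissues the lung was higher, by 3.31 to 4.63 on the log2 scale. The difference was 4.08 ± 0.23 (SE, adjusted p = 7.76e-11, edgeR). Soat2 ran the other way, from 27.7 to 82.6 CPM in the liver and from 0.316 to 1.77 CPM in the lung. Its difference was −5.82 ± 0.33 (adjusted p = 6.42e-11, edgeR), and the lung was lower in all 6 mice. The 2 genes of intracellular esterification were therefore opposite in the tissues.

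The same contrast can be read within a library from the deposited FPKM, which is per gene length. The level of Soat2 over that of Soat1 was 24.7, 203, 21.2 and 42.5 in the CS livers and 154, 94.5, 143, 49.1 and 45 in the PS livers. In the lung Soat1 was the higher of the pair, with a level 73.2, 21.8 and 16.6 times that of Soat2 in the CS lungs and 11.1, 6.59 and 8.44 times in the PS lungs. The lungs of the diets did not overlap in this ratio, nor did the CPM of 36% of all lung genes tested. The GC index of the lungs, a measure of how GC-rich genes stand against GC-poor genes in a library, did not overlap either, at −0.2, −0.1 and −0.15 in CS and −0.01, 0.13 and 0.32 in PS, and its part in the ratio was not tested. On the log2 scale the ratio of Soat2 to Soat1 was −4.9 ± 1.14 in CS and −3.09 ± 0.37 in PS lungs (SD, n = 3 each, two-sided exact permutation p = 0.1, the smallest that 3 against 3 allows). In the liver it was 5.53 ± 1.49 in CS and 6.42 ± 0.83 in PS (SD, n = 4 and 5, exact permutation p = 0.278), a difference within the spread between livers. Macrophage markers (12 genes) summed to 100 to 401 CPM in the livers and 3960 to 6907 CPM in the lungs, scaled within each tissue. Most of the lung sum was Lyz2, with means of 47.8 (CS) and 30.9 (PS) CPM in liver and 5699 and 4412 CPM in lung. By CS means Clec4f (84.1 and 0.185 CPM), Vsig4 (16.8 and 0.223), Marco (22.4 and 5.09) and C1qa (58.1 and 54.9) were lower in the lung. Chil3, Cd68, Adgre1, Mrc1, Csf1r, Siglecf and C1qb were higher there. The part of these markers in the Soat1 difference was not tested.

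The apolipoproteins and assembly genes were all lower in the lung than in the liver. Apoe, the apolipoprotein of remnant clearance, was at 30630 to 50740 CPM in the liver and at 367 to 525 CPM in the lung, a difference of −6.54 ± 0.33 (adjusted p = 1.65e-11, edgeR). Apob was at 4126 to 7769 CPM in the liver and at 0.903 to 6.43 CPM in the lung, a difference of −11.49 ± 0.56 (adjusted p = 8.79e-12, edgeR). Mttp was at 199 to 587 CPM against 2.12 to 3.87 CPM, a difference of −7.29 ± 0.29 (adjusted p = 9.36e-13, edgeR). None of these ranges overlapped between the tissues. Apoa1, the main protein of high-density lipoprotein, had 11650 to 35910 CPM in the liver, and in the lung 390 counts in CS replicate 1 against 1 to 36 counts in the other 5 libraries. Apoa4, an apolipoprotein of triglyceride-rich particles, had 379 to 3093 CPM in the liver. In the lung it had 30 counts in CS replicate 1, 2 in PS replicate 3 and 0 in the other 4 libraries. The fitted difference of Apoa1 was −13.78 ± 1.22 (adjusted p = 2.06e-08, edgeR), and for Apoa4, at 0 in most lungs, a fitted size would depend on the prior count and is not given.

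The plasma enzymes divided. Lcat was at 685 to 878 CPM in the liver and at 0.552 to 2.68 CPM in the lung, a difference of −9.33 ± 0.34 (adjusted p = 3.62e-13, edgeR). Lipc was at 185 to 302 CPM in the liver and at 0.101 to 0.546 CPM in the lung, a fitted difference of −9.83 ± 0.25 (edgeR). Pltp, which moves phospholipid between particles, overlapped, at 25.5 to 153 CPM in the liver and 86.9 to 157 CPM in the lung. Its difference of 0.53 ± 0.26 did not pass the test (adjusted p = 0.0752, edgeR), and the lung was higher in 4 of the 6 mice with both tissues. With DESeq2's size factors it passed (0.68, adjusted p = 0.0274), with plain library totals too (1.91, adjusted p = 5.83e-06), and within the CS group as well (1.11, adjusted p = 0.0169), whereas within the PS group it was −0.04 (adjusted p = 0.924). Leaving out liver CS replicate 2 (0.66, adjusted p = 0.024) or liver PS replicate 3 (0.61, adjusted p = 0.0484) also took it past the threshold.

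**Figure D1:**
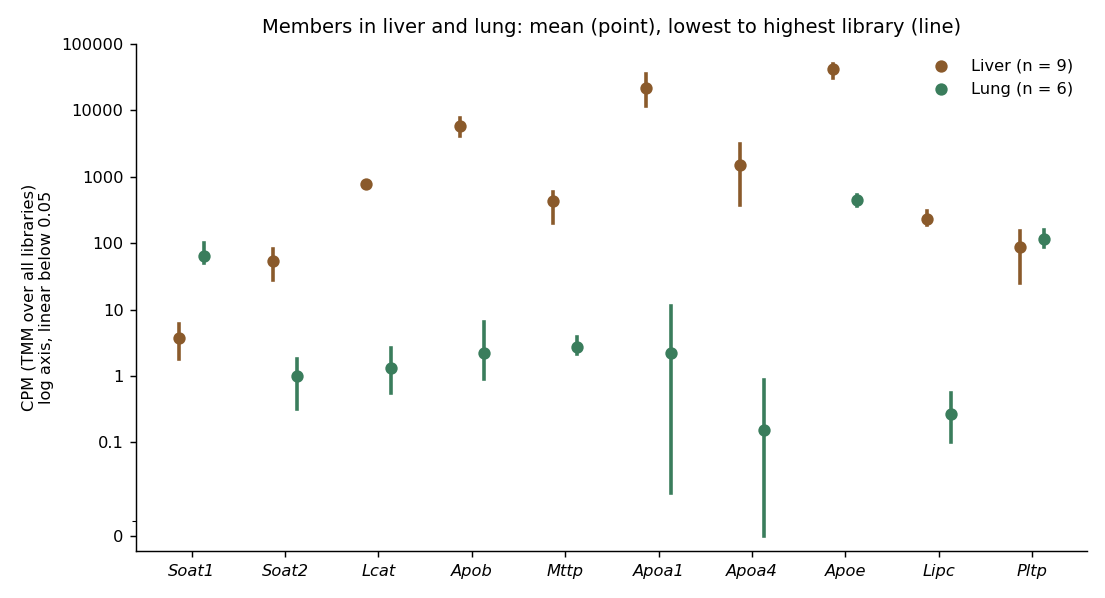
Level of each member in liver and lung, in CPM after TMM scaling over all 15 libraries (log axis, linear below 0.05). Points are means over 9 livers and 6 lungs and lines run from the lowest to the highest library. Soat1 lies higher in the lung, Pltp overlaps, and the other 8 members lie lower in the lung without overlap.

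Compared per length in the deposited FPKM, Apoe (13620) and Apoa1 (12300) led in the liver and overlapped each other over the 9 livers. After a gap followed Apoa4 (576), Lcat (401) and Apob (293), where each neighbour overlapped the next. Lipc (73.2), Mttp (47.5), Pltp (23.4) and Soat2 (16.8) formed another run of overlapping neighbours, and Soat1 was lowest at 0.259, below the range of Soat2. In the lung Apoe (380), Pltp (82) and Soat1 (11.6) stood in that order, Apoe and Pltp each without overlap with the next. The 7 members that followed, from Apoa1 (3.19) through Lcat (1.81), Soat2 (0.819), Mttp (0.799), Apob (0.288) and Lipc (0.223) to Apoa4 (0.15), each overlapped the next over the 6 lungs. The place of Apoa1 rested on CS replicate 1, at 16.1 FPKM against 0.0417 to 1.65 FPKM in the other lungs. The counting setting for strand was not given in the sources used here and the library kit does not mark strand. Exons of Pltp share 495 of 2562 bases with Ctsa on the other strand, those of Mttp 457 of 6206 with Trmt10a and 132 with Gm43691, and those of Apoa4 632 of 1815 with Gm10680 and 634 with Gm47528, so reads there could come from either gene.

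The labelled tissues carried their markers. The 8 hepatocyte markers summed to 78540 to 122400 CPM in the livers, and the 6 alveolar epithelial type II markers to 19950 to 34340 CPM in the lungs. One lung stood apart. Lung CS replicate 1 held 1177 counts of albumin (Alb), the main plasma protein of hepatocytes, against 6 to 186 in the other 5 lungs. It also held 117 counts of Ttr, 97 of Serpina1a, 118 of Fgb and 98 of Apoc3, which were all at 0 in CS replicates 2 and 3. PS replicates 1, 2 and 3 held 4, 28 and 9 counts of Ttr and 2, 11 and 6 of Serpina1a. They held 0, 14 and 3 counts of Fgb and 1, 11 and 4 of Apoc3. The other 3 of the 8 hepatocyte markers were present in every lung. Ahsg had 130 counts in CS replicate 1 and 14 to 30 in the others. Tat had 62 counts there and 3 to 40 in the others, and Cyp2e1 had 774, close to the 728 of CS replicate 2. As a share of the liver count both were higher in CS replicate 2, at 0.272% and 0.933%, than in CS replicate 1, at 0.22% and 0.507%. Set against the liver of the same mouse, its lung counts were 0.13% for Alb, 0.127% for Ttr, 0.189% for Apoa1, 0.157% for Apoa4 and 0.259% for Apob. In the other 5 lungs Apoa1 reached at most 0.0124% and Apoa4 at most 0.0249% of the count in the liver of the same animal. Summed hepatocyte markers were 130, 40.2 and 8.2 CPM in the CS lungs and 22.3, 24 and 14.4 CPM in the PS lungs, with 4 of the 8 tested between the diets and none of them past the test. Without this lung the difference between the tissues was −16.42 ± 0.66 for Apoa1 (adjusted p = 4.44e-12, edgeR) and −12 ± 0.48 for Apob (adjusted p = 4.74e-12, edgeR), further below the liver than with it.

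**Figure D2:**
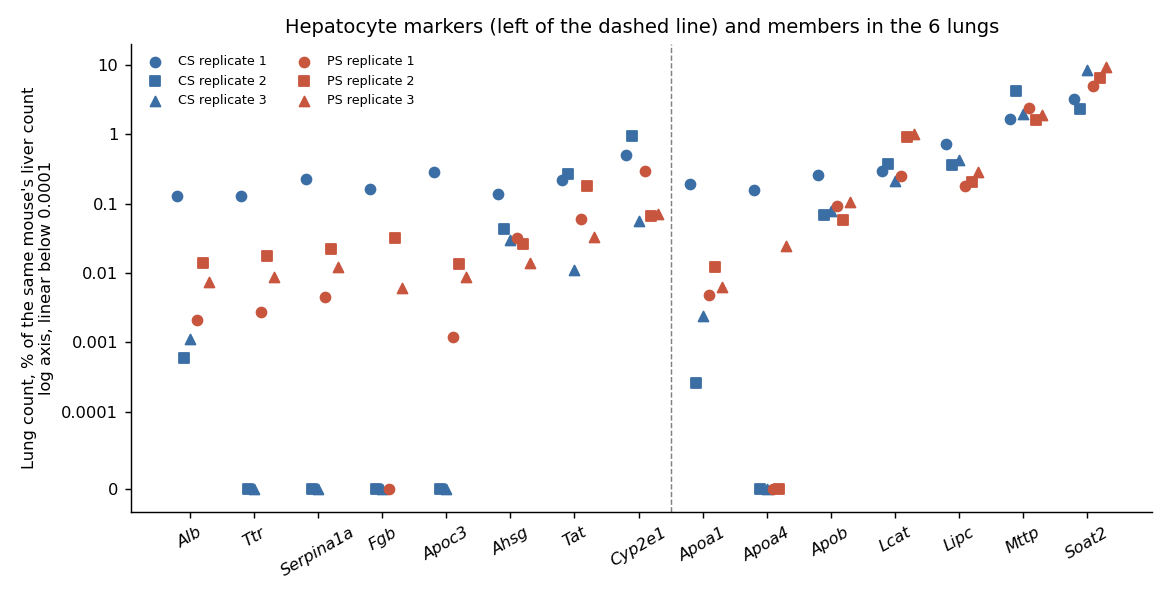
Count in each of the 6 lungs as a percentage of the count in the liver of the same mouse, for the 8 hepatocyte markers and 7 members (log axis, linear below 0.0001). Circles in the CS colour mark CS replicate 1, which lies between 0.127% and 0.283% and above the other lungs for Alb, Ttr, Serpina1a, Fgb, Apoc3, Ahsg, Apoa1, Apoa4 and Apob, and at 0.727% and above the others for Lipc, while for Tat, Cyp2e1, Lcat, Mttp and Soat2 it lies among them.

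No member passed the test between the diets in the liver. Of the 10 members, all tested, 3 were higher and 7 lower in PS than in CS, and 0 passed an unadjusted p of at most 0.05 or an adjusted p under 0.05 (edgeR, 4 CS and 5 PS livers). Over the 13195 genes tested, 7.55% passed the unadjusted and 0.00758% the adjusted threshold. The median of the members was −0.16 on the log2 scale and that of all genes −0.03. By DESeq2's Wald test 1 member, Lcat, passed the unadjusted threshold. In what follows CPM is scaled within the tissue.

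Esterification genes in the liver moved in both directions within the spread. Soat1 was at 3.37, 1.28, 4.12 and 2.88 CPM in CS and at 1.47, 1.93, 1.57, 2.64 and 3.18 CPM in PS. The diets overlapped, and the lowest liver was CS replicate 2. The log2 fold change was −0.43 ± 0.38 (SE, adjusted p = 0.871, edgeR). With 1 liver left out it ran from −0.68 without CS replicate 2 (unadjusted p = 0.0568, edgeR) to −0.22 without CS replicate 3 (unadjusted p = 0.606, edgeR). Soat2 was at 18.8, 58.8, 19.7 and 27.7 CPM in CS and at 51, 41.3, 50.9, 29.3 and 32.4 CPM in PS. All 5 PS livers were above 3 of the 4 CS livers, and the highest liver of all was CS replicate 2. The log2 fold change was 0.39 ± 0.34 (adjusted p = 0.866, edgeR). Without CS replicate 2 it was 0.89 ± 0.23 with an unadjusted p of 0.00245 and an adjusted p of 0.12 (edgeR), still short of the adjusted threshold. It was 0.21 without CS replicate 1 (unadjusted p = 0.558, edgeR) and 0.22 without CS replicate 3 (unadjusted p = 0.536, edgeR).

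Lcat, the plasma esterification enzyme secreted by the liver, was at 499, 487, 488 and 462 CPM in CS and at 561, 591, 546, 540 and 594 CPM in PS. Every PS liver was above every CS liver, and Lcat was the 1 member of 10 without overlap, against 3.63% of all 13195 genes. Means were 484 ± 15.6 and 567 ± 25.1 CPM (SD, n = 4 and 5). The exact permutation test over livers gave p = 0.00794, the smallest that 4 against 5 allows, and was run for each of the 10 members. In edgeR, where the spread of a gene is drawn towards that of genes of like abundance, the log2 fold change was 0.23 ± 0.15 (unadjusted p = 0.151, adjusted p = 0.779). DESeq2's Wald test gave 0.22 ± 0.1 (unadjusted p = 0.0211, adjusted p = 0.376). With each library's length trend removed the log2 fold change was 0.14 ± 0.16 (unadjusted p = 0.407, edgeR). With the GC trend removed it was 0.28 ± 0.15 (unadjusted p = 0.0967, edgeR). The call for this gene changed with the test and its size with these trends, while the direction did not change. The 8 hepatocyte markers, of which 7 were higher and 1 lower in PS with none past the unadjusted threshold, summed to 78540 to 101100 CPM in CS and 99570 to 122400 CPM in PS, and their part in the Lcat values was not tested.

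The assembly genes did not differ beyond the spread. Apob was at 4767, 3109, 5281 and 3878 CPM in CS and at 2848, 4516, 2864, 4802 and 3988 CPM in PS, a log2 fold change of −0.16 ± 0.24 (adjusted p = 0.949, edgeR). Mttp was at 399, 141, 379 and 306 CPM in CS and at 203, 303, 260, 324 and 290 CPM in PS, a log2 fold change of −0.15 ± 0.28 (adjusted p = 0.965, edgeR). With 1 liver left out the Mttp value ran from −0.39 ± 0.19 without CS replicate 2 (unadjusted p = 0.0644, edgeR) to 0 ± 0.3 without CS replicate 1 (unadjusted p = 0.991, edgeR). For both genes the diets overlapped, and CS replicate 2 was the lowest CS liver. Apoa1 was at 11370, 25540, 12150 and 15370 CPM in CS and at 19440, 12680, 16950, 7810 and 13630 CPM in PS (−0.19 ± 0.31, adjusted p = 0.957, edgeR). Apoa4 was at 1053, 2199, 886 and 653 CPM in CS and at 915, 1296, 1507, 254 and 532 CPM in PS (−0.41 ± 0.49, adjusted p = 0.927, edgeR). Apoe was at 24860, 36080, 23790 and 31330 CPM in CS and at 34780, 30360, 31840, 20530 and 24680 CPM in PS (−0.03 ± 0.22, adjusted p = 0.993, edgeR). For these 3 apolipoproteins CS replicate 2 was the highest liver and PS replicate 4 the lowest, and without CS replicate 2 their fold changes turned to 0.12, 0.06 and 0.09.

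The remodelling genes were Lipc and Pltp. Lipc, which hydrolyses triglyceride and phospholipid of remnants and high-density lipoprotein, was at 144, 167, 150 and 201 CPM in CS and at 128, 130, 140, 170 and 164 CPM in PS. The diets overlapped and the log2 fold change was −0.18 ± 0.17 (adjusted p = 0.889, edgeR). Pltp was at 35.1, 64.7, 50.3 and 17 CPM in CS and at 33.3, 86.3, 104, 53.3 and 88.4 CPM in PS. The 3 highest livers were PS and the lowest CS, with overlap between the diets. Its log2 fold change of 0.81 ± 0.4 was the largest of the 10 members in the liver (unadjusted p = 0.0668, adjusted p = 0.699, edgeR). With each library's trend with GC content removed it was 0.91 ± 0.38 (unadjusted p = 0.0341), without CS replicate 2 it was 1.1 ± 0.4 (unadjusted p = 0.0176) and without PS replicate 1 it was 0.99 ± 0.37 (unadjusted p = 0.0223), with adjusted p-values of 0.631, 0.251 and 0.673 (edgeR). It was lower, at 0.55, without CS replicate 4 (unadjusted p = 0.161, edgeR) and at 0.64 without PS replicate 3 (unadjusted p = 0.152, edgeR). Macrophage markers summed to 272 to 401 CPM in CS and 100 to 343 CPM in PS livers. Of the 10 markers tested all were lower in PS, 3 of them past the unadjusted threshold, so these markers ran opposite to Pltp and in the direction of the Soat1 values. Their part was not tested.

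**Figure D3:**
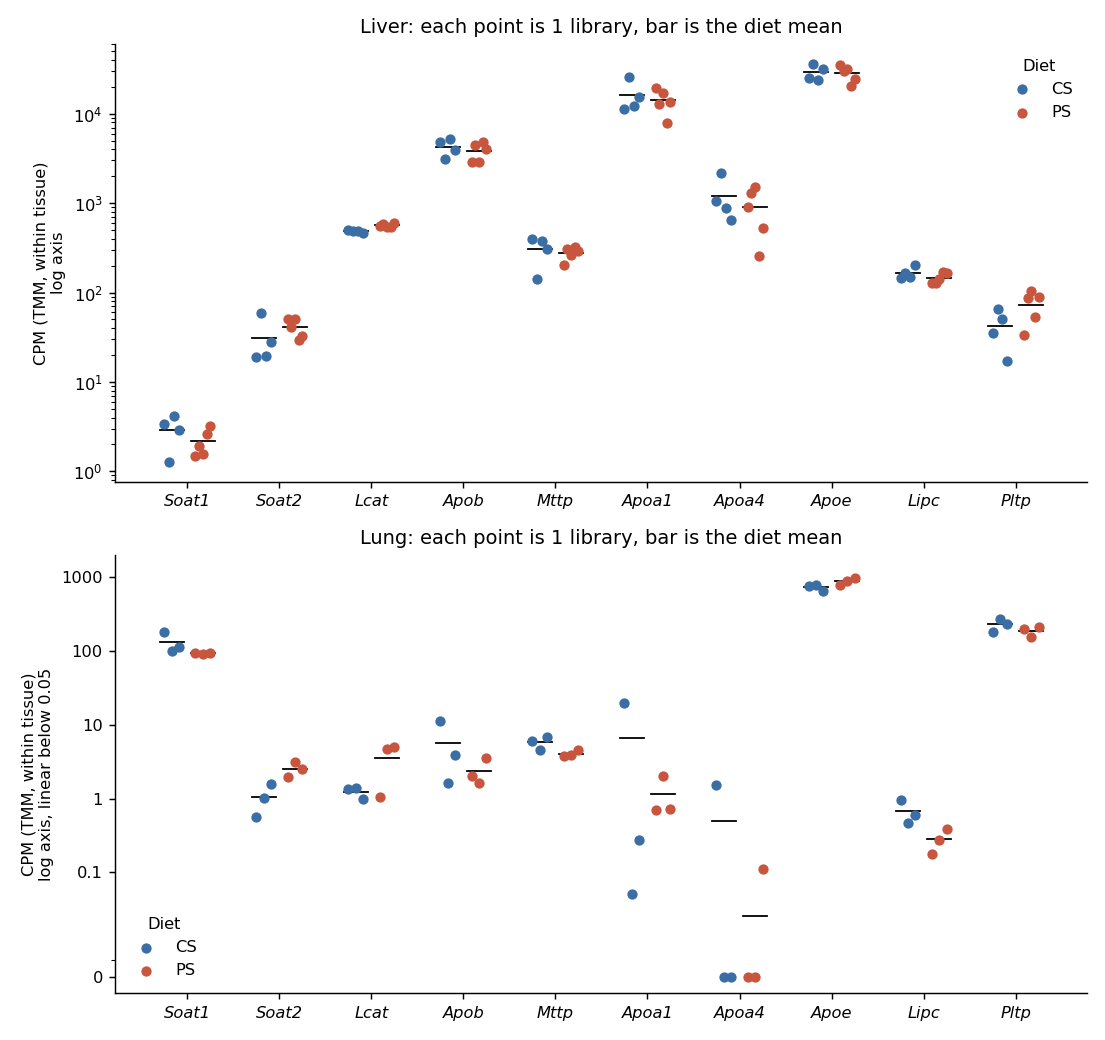
CPM of each member in every library, liver above and lung below (TMM within tissue, log axis, linear below 0.05 in the lung). Points are libraries and bars are diet means. In the liver the diets separate for Lcat alone, and in the lung for Soat1, Soat2 and Lipc. Apoa1 and Apoa4 in the lung have 1 high point, CS replicate 1.

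Over the 9 livers several members varied together. Relations were computed for the 45 pairs of members over the 9 livers on log2 CPM, with two-sided exact permutation tests and Benjamini-Hochberg adjustment over the 45. By Pearson's r 9 pairs passed the adjustment, 4 positive and 5 negative, all among Soat1, Soat2, Apob, Mttp, Apoa1 and Apoe, and 7 of them passed by Spearman's rho too. The share of pairs of all genes related this strongly was not computed, so the count gives no result particular to the members. Soat1 and Soat2 were inversely related, with Pearson's r = −0.95 (exact permutation p = 0.000135, adjusted 0.00608) and Spearman's rho = −0.93 (p = 0.00075, adjusted 0.0169). Without the 2 livers farthest from the median of Soat1, r was −0.92. Mttp followed Soat1 (r = 0.86, exact permutation p = 0.000364, adjusted 0.0067; rho = 0.87, p = 0.00451, adjusted 0.029; 0.77 without the 2 farthest) and ran opposite to Soat2 (r = −0.87, exact permutation p = 0.000689, adjusted 0.00775; rho = −0.97, p = 0.000165, adjusted 0.00744; −0.87 without the 2 farthest). Apob and Mttp varied together (r = 0.8, exact permutation p = 0.00467, adjusted 0.0335; rho = 0.85, p = 0.00607, adjusted 0.0342), and r was 0.9 without the 2 farthest livers. So did Apoa1 and Apoe (r = 0.91, exact permutation p = 0.000446, adjusted 0.0067; rho = 0.92, p = 0.00131, adjusted 0.0183; 0.84 without the 2 farthest). Apob and Apoa1 were opposite (r = −0.81, exact permutation p = 0.00511, adjusted 0.0335; rho = −0.9, p = 0.00203, adjusted 0.0183; −0.85 without the 2 farthest). So were Mttp and Apoa1 (r = −0.84, exact permutation p = 0.00521, adjusted 0.0335; rho = −0.9, p = 0.00203, adjusted 0.0183), and r was −0.51 without the 2 farthest livers. With 4 and 5 livers a diet, no value was computed within the diets, and the part of diet in these relations was not tested.

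The members of these pairs differ in the make-up of their transcripts. Apob, Soat1 and Mttp are long and poor in GC, with exons of 13934, 9791 and 6206 bases at 43.55%, 44.06% and 45.87% GC. Soat2, Apoa1 and Apoe are short and rich in GC, with 2213, 1236 and 2138 bases at 55.16%, 56.81% and 59.52% GC. Lcat (1342 bases, 55.51% GC) and Pltp (2562 bases, 57.28% GC) are as short and rich in GC and were in none of the pairs past the adjustment, with r of −0.16 and 0.01 to Apoa1 (exact permutation p = 0.686 and 0.973; rho = −0.07 and 0.08, p = 0.88 and 0.843). Apoa4 (1815 bases, 57.58% GC) was in none of them either, with r = 0.76 to Apoa1 (exact permutation p = 0.0211, adjusted 0.0679; rho = 0.55, p = 0.133) and 0.75 to Apoe (exact permutation p = 0.0168, adjusted 0.0582; rho = 0.73, p = 0.0311, adjusted 0.0875), and 0.04 and 0.33 without the 2 farthest livers. A GC index was taken for each library as the median deviation of GC-rich genes (54.2% GC or more) minus that of GC-poor genes (44.7% or less) from the mean of the livers, on the log2 scale. It was highest in CS replicate 2 at 0.53 and in PS replicate 1 at 0.17, and lowest in PS replicate 4 at −0.34. In a family of 20 relations of the members to this index and to a like index of gene length, Apoa1 had r = 0.88 with the GC index (exact permutation p = 0.00341, adjusted 0.0678; rho = 0.68, p = 0.0514, adjusted 0.171). Mttp had r = −0.78 (exact permutation p = 0.0195, adjusted 0.0779; rho = −0.47, p = 0.205, adjusted 0.341). Apoa4 had r = 0.82 with it (exact permutation p = 0.0106, adjusted 0.0705; rho = 0.75, p = 0.0237, adjusted 0.127). None of the 20 passed the adjustment, and without the 2 livers farthest from the median of the index r was 0.52 for Apoa1, −0.44 for Mttp and 0.42 for Apoa4, so these values rest on those livers. With the length index Apoe had r = −0.83 (exact permutation p = 0.00678, adjusted 0.0678; rho = −0.75, p = 0.0255, adjusted 0.127), and r was −0.7 without the 2 farthest livers. Apob had r = 0.74 with it (exact permutation p = 0.0254, adjusted 0.0848; rho = 0.83, p = 0.00827, adjusted 0.127), and r was 0.52 without the 2 farthest. Soat2 had r = 0.53 with the GC index (exact permutation p = 0.138; rho = 0.44, p = 0.242) and −0.69 with the length index (exact permutation p = 0.0478, adjusted 0.125; rho = −0.48, p = 0.194). The part of base composition and length in the pairs was not tested further.

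**Figure D4:**
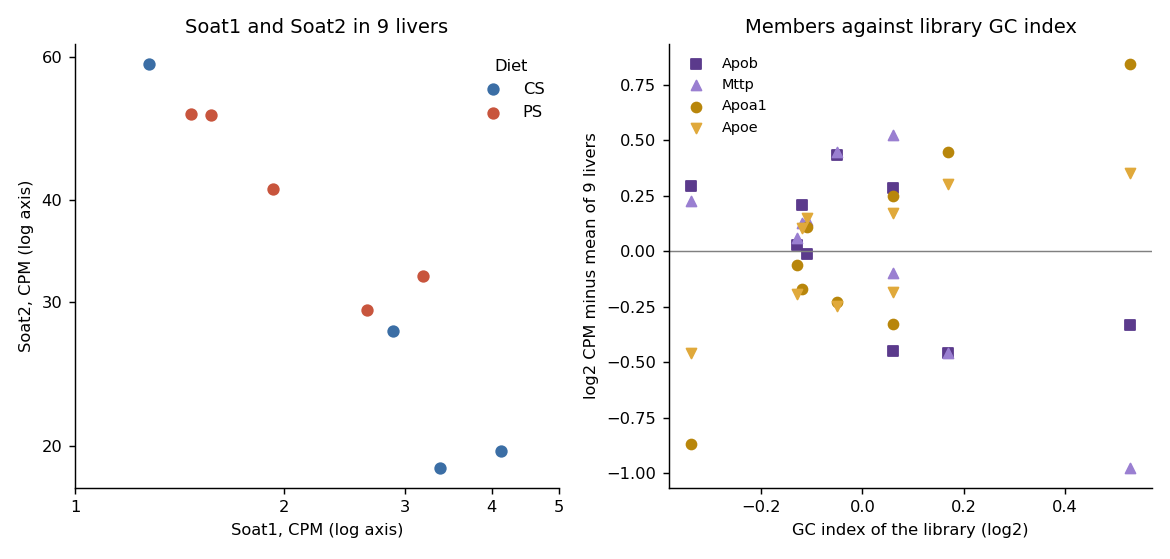
Left, Soat2 against Soat1 in the 9 livers, CPM on log axes, coloured by diet. Livers low in Soat1 are high in Soat2 (r = −0.95), with livers of both diets along the line. Right, log2 CPM of Apob, Mttp, Apoa1 and Apoe as deviation from the mean of the 9 livers against the GC index of the library. Apoa1 and Apoe lie high and Mttp low in the library at 0.53, CS replicate 2.

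In the lung 8 members passed the filter on low counts, 3 higher and 5 lower in PS, while Apoa4 and Lipc did not pass. Of the 8, 2 had an unadjusted p of at most 0.05, Soat2 and Lcat, both higher in PS, and 0 had an adjusted p under 0.05 (edgeR, 3 CS and 3 PS lungs). Over the 16717 genes tested, 30.1% passed the unadjusted and 9.22% the adjusted threshold, so the count of members was no larger a share than that of all genes. The median of the tested members was −0.38 and that of all genes 0.01 (log2). Of all 10 members, 3 had no overlap between the diets (Soat1, Soat2 and Lipc), against 36% of the 16717 genes.

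Soat1, the main esterification gene of the lung by level, was at 180, 99.2 and 116 CPM in CS and at 95.7, 92.8 and 94.8 CPM in PS. The PS lungs lay close together below all CS lungs. The log2 fold change was −0.48 ± 0.21 (unadjusted p = 0.0516, adjusted p = 0.169, edgeR), without CS replicate 1 it was −0.21 ± 0.15 (unadjusted p = 0.207, edgeR) and without CS replicate 2 it was −0.66 ± 0.21 (unadjusted p = 0.0121, edgeR). It passed the unadjusted threshold by DESeq2's Wald test (unadjusted p = 0.0415) and in edgeR with no filter (unadjusted p = 0.017), and was at −0.36 with the GC trend removed (unadjusted p = 0.116, edgeR) and −0.37 with the length trend removed (unadjusted p = 0.109, edgeR). Soat2 was at 0.556, 1.03 and 1.57 CPM in CS (11, 20 and 29 counts) and at 1.95, 3.18 and 2.54 CPM in PS (33, 57 and 46 counts). All PS lungs were above all CS lungs, at a level far under that of the liver. The log2 fold change was 1.28 ± 0.44 (unadjusted p = 0.0173, adjusted p = 0.0913, edgeR; exact permutation p = 0.1, the smallest possible). It was 0.95 without CS replicate 1, 1.24 without CS replicate 2 and 1.09 without PS replicate 2, with unadjusted p-values of 0.0612, 0.0543 and 0.0594 (edgeR), and so lost the unadjusted call each time.

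Lcat in the lung was at 1.37, 1.39 and 0.977 CPM in CS (27, 27 and 18 counts) and at 1.07, 4.75 and 4.97 CPM in PS (18, 85 and 90 counts). PS replicates 2 and 3 were high, and PS replicate 1 lay within the CS range. The log2 fold change was 1.53 ± 0.54 (unadjusted p = 0.0199, adjusted p = 0.0985, edgeR; exact permutation p = 0.3). DESeq2's Wald test put it past the adjusted threshold (1.53 ± 0.57, adjusted p = 0.0427), as did edgeR without a filter (1.52 ± 0.47, adjusted p = 0.0471) and edgeR without PS replicate 1 (1.95 ± 0.31, adjusted p = 0.00926). Without CS replicate 3, PS replicate 2 or PS replicate 3 the unadjusted p was 0.0563, 0.0707 and 0.0769 (edgeR). By limma the fold change was 0.81 ± 0.35 on log2(FPKM + 1) (unadjusted p = 0.0501) and 1.19 ± 0.53 on log2(FPKM + 0.1) (unadjusted p = 0.0573). The 6 alveolar epithelial type II markers summed to 21060, 19950 and 20570 CPM in CS lungs and 34340, 33990 and 21920 CPM in PS lungs. Of them 2 were higher and 4 lower in PS, with none past the adjusted threshold. At the unadjusted threshold 1 was higher, Sftpc (13290 to 23400 CPM). At the same threshold 2 were lower, Abca3 (196 to 98 CPM) and Slc34a2 (1144 to 769 CPM). PS replicate 1 also stood apart from PS replicates 2 and 3 in markers of other tissue. The 5 adipocyte markers summed to 94.5, 121 and 12.5 CPM in CS lungs and 104, 0.168 and 0.662 CPM in PS lungs, all 5 lower in PS with none past the unadjusted threshold. The 5 cardiac muscle markers summed to 165, 255 and 175 CPM in CS lungs and 481, 41 and 86.1 CPM in PS lungs. Of them 4 were higher and 1 lower in PS, with none past the adjusted threshold. The 1 lower, Actc1 (73.3 to 39.1 CPM), passed the unadjusted threshold. The part of these markers in the Lcat values was not tested. The GC index, which did not overlap between the diets, was lowest in CS replicate 1 and highest in PS replicate 3. With the GC trend of each library removed, Soat2 was at 1.17 ± 0.44 (unadjusted p = 0.0254, edgeR) and Lcat at 1.38 ± 0.52 (unadjusted p = 0.0271, edgeR).

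The assembly and apolipoprotein genes of the lung gave no call. Apob was at 11.3, 1.65 and 3.85 CPM in CS and at 2.01, 1.62 and 3.53 CPM in PS (−1.23 ± 0.64, adjusted p = 0.229, edgeR). Its highest value was that of CS replicate 1, and the diets overlapped. Without CS replicate 1 the fold change was −0.24 ± 0.51 (unadjusted p = 0.655, edgeR), and without CS replicate 2 it was −1.69 ± 0.51 (unadjusted p = 0.00984, adjusted p = 0.132, edgeR). DESeq2's Wald test gave −1.23 ± 0.61 (unadjusted p = 0.0417, adjusted p = 0.144). Mttp was at 6.07, 4.52 and 6.84 CPM in CS and at 3.73, 3.96 and 4.53 CPM in PS (−0.51 ± 0.26, adjusted p = 0.221, edgeR), where CS replicate 2 fell just below the highest PS lung. Apoa1 had 390, 1 and 5 counts in CS and 12, 36 and 13 counts in PS, a fitted log2 fold change of −2.54 ± 1.88 (adjusted p = 0.414, edgeR) that turned to 2.77 ± 0.9 without CS replicate 1. That value passed the unadjusted threshold in the opposite direction (unadjusted p = 0.0156, adjusted p = 0.141, edgeR) on 1 and 5 CS counts, and with the replicate block the value was −0.06 ± 3.4. Its direction therefore turned on the library with the most counts of Alb, Ttr, Serpina1a, Fgb and Apoc3. The PS lungs held some counts of these markers too, while CS replicates 2 and 3 held only those of Alb (6 and 12). Apoa4 had 30, 0 and 0 counts in CS and 0, 0 and 2 in PS, and no fold is given. Apoe, at 762, 788 and 648 CPM in CS and 787, 897 and 974 CPM in PS, overlapped (0.27 ± 0.17, adjusted p = 0.313, edgeR). With the GC trend removed its value was 0.02 ± 0.16 (unadjusted p = 0.916, edgeR).

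Lipc had 19, 9 and 11 counts in CS lungs and 3, 5 and 7 in PS lungs, or 0.96, 0.463 and 0.597 against 0.178, 0.279 and 0.386 CPM. The diets did not overlap, but the gene was under the filter, and the exact permutation test gave p = 0.1, the smallest possible, so no fitted fold change is given. Pltp was at 179, 276 and 235 CPM in CS and at 200, 156 and 210 CPM in PS. The diets overlapped and the log2 fold change was −0.28 ± 0.2 (adjusted p = 0.359, edgeR). With the GC trend removed Pltp was at −0.47 ± 0.19 (unadjusted p = 0.0355, adjusted p = 0.142, edgeR), and without CS replicate 1 at −0.46 ± 0.19 (unadjusted p = 0.0413, adjusted p = 0.199, edgeR). It was smaller, at −0.16 ± 0.22, without CS replicate 2 (unadjusted p = 0.482, edgeR) and at −0.16 ± 0.2 without PS replicate 2 (unadjusted p = 0.452, edgeR).

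**Figure D5:**
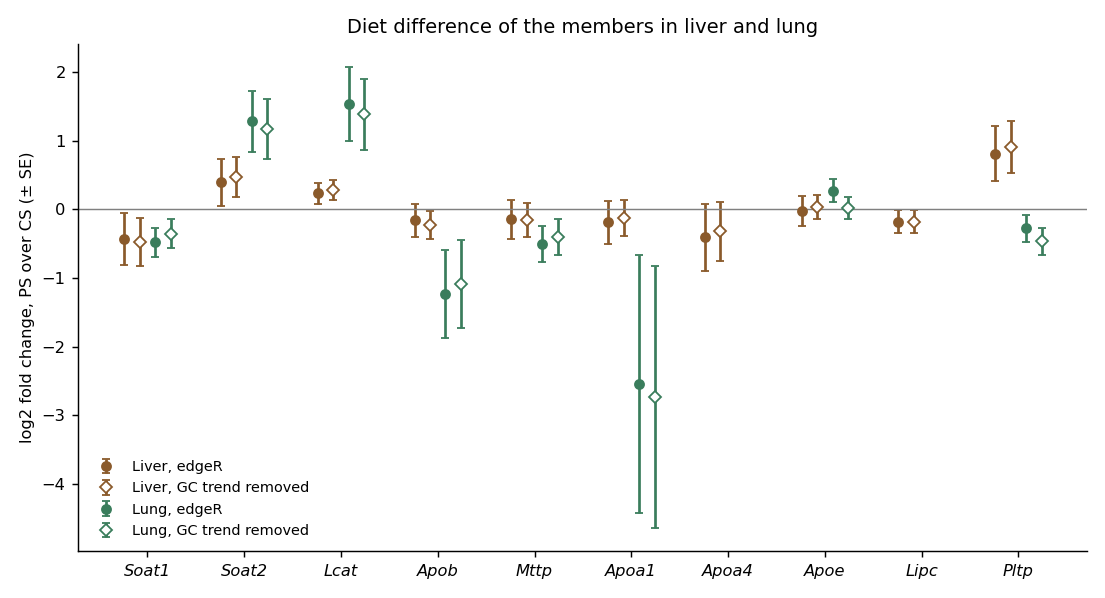
Log2 fold change of PS over CS for each member in liver and lung, with bars of 1 SE. Filled circles are the edgeR estimates and open diamonds those with the GC trend of each library removed. Apoa4 and Lipc have no lung estimate. The widest bars are those of Apoa1 in the lung, and in the liver the largest estimate is that of Pltp at 0.81.

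Whether the diet effect itself differed between the tissues was tested in the fit over all 15 libraries. Lipc and Apoa4 were under the filter in the lung and entered this fit through their liver counts, so no difference of effects is given for them. Of the other 8 members, 0 passed the adjusted threshold, against 0.0226% of the 17696 genes (edgeR), and 2 passed the unadjusted threshold of 0.05, against 10.9% of all genes. The effect in lung minus that in liver was 1.24 ± 0.47 for Lcat (unadjusted p = 0.0185, adjusted p = 0.386) and −1.15 ± 0.53 for Pltp (unadjusted p = 0.0461, adjusted p = 0.454) in edgeR. With the mouse as a block, over the 6 animals that gave both tissues, the unadjusted calls of Lcat (1.17 ± 0.59, unadjusted p = 0.0754, edgeR) and Pltp (−0.72 ± 0.5, unadjusted p = 0.179, edgeR) were lost. Pltp lost it too with DESeq2's size factors (unadjusted p = 0.0542, edgeR) and with plain library totals (unadjusted p = 0.0569, edgeR). When 1 library was left out, the call of Lcat was lost without lung CS replicate 3, PS replicate 2 or PS replicate 3, with unadjusted p-values of 0.056, 0.0686 and 0.0717 (edgeR). That of Pltp was lost without liver CS replicate 1 or 4, liver PS replicate 2, 3 or 5, lung CS replicate 2 or 3, or any lung PS replicate, with unadjusted p-values from 0.0581 to 0.101 (edgeR). The separate estimates of Pltp were 0.81 in the liver and −0.28 in the lung. Those of Soat1 were −0.43 and −0.48 (difference in the joint fit −0.08 ± 0.46, adjusted p = 0.989, edgeR).

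Around the members, 5 lists of genes of the same pathways were counted, against 7.55% of all liver genes at the unadjusted and 9.22% of all lung genes at the adjusted threshold. The liver genes named from them passed the unadjusted threshold alone, with adjusted p-values of 0.29 to 0.658 (edgeR). The lung genes named from them, 6 in all, kept their direction when any 1 lung was left out, but each lost the adjusted call without CS replicate 1, 2 or 3 or PS replicate 2. Among other genes of neutral lipid esterification and ester hydrolysis, 9 of 11 were tested in the liver, with a median of −0.34 (all genes −0.03), and 1 was higher and 2 lower at the unadjusted threshold. Dgat2, which makes triglyceride, rose from 368 to 519 CPM (0.5 ± 0.18, unadjusted p = 0.0178, edgeR). Nceh1, a cholesteryl ester hydrolase, fell from 57.1 to 28.7 CPM (−0.99 ± 0.34, unadjusted p = 0.0126, edgeR), and Plin2, a lipid droplet coat protein, fell from 1056 to 510 CPM (−1.05 ± 0.47, unadjusted p = 0.0479, edgeR). The macrophage markers of the liver, 10 of 10 lower in PS with a median of −0.65, lay in the same direction as Nceh1 and Plin2, and their part was not tested. In the lung 9 were tested, with a median of 0.08 (all genes 0.01), and 2 were higher and 1 lower at the adjusted threshold. Dgat1, the other triglyceride-forming enzyme, rose from 21.6 to 35.8 CPM (0.73 ± 0.19, adjusted p = 0.0473, edgeR), a call lost without PS replicate 3 too (adjusted p = 0.0686), and Lipe, hormone-sensitive lipase, from 108 to 171 CPM (0.66 ± 0.14, adjusted p = 0.0338, edgeR). Nceh1 fell from 87.8 to 59.6 CPM (−0.56 ± 0.14, adjusted p = 0.0407, edgeR). In the fits that lost them the adjusted p-values reached 0.162 for Dgat1, 0.12 for Lipe and 0.132 for Nceh1 (edgeR).

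Of 11 genes of lipoprotein receptors and lipid exporters, all were tested in the liver, with a median of −0.06. In the lung 8 were tested (median −0.23) and 1 passed the adjusted threshold, Lsr, a receptor for triglyceride-rich lipoprotein, which fell from 15.2 to 6.01 CPM (−1.34 ± 0.2, adjusted p = 0.019, edgeR), with adjusted p-values of 0.0714 to 0.0788 (edgeR) in the 4 fits without 1 lung that lost it.

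Among 15 genes of plasma lipases and remodelling, 14 were tested in each tissue, with medians of −0.08 in the liver and −0.07 in the lung. At the unadjusted threshold 2 were higher and 2 lower in the liver. Pon1, a paraoxonase carried on high-density lipoprotein, rose from 815 to 1147 CPM (0.49 ± 0.17, unadjusted p = 0.0141, edgeR), Lipg, endothelial lipase, rose from 5.65 to 10.9 CPM (0.95 ± 0.35, unadjusted p = 0.0198, edgeR) and Gpihbp1, which anchors lipoprotein lipase to endothelium, fell from 12.5 to 8.44 CPM (−0.56 ± 0.23, unadjusted p = 0.0292, edgeR). The 6 endothelial markers were all lower in PS livers, none past the unadjusted threshold, with a median of −0.56, and summed to 92.4 to 109 CPM in CS and 50 to 113 CPM in PS. Their part in the Gpihbp1 value was not tested. In the lung Lmf1, needed for the maturation of lipases, rose from 13.2 to 21.3 CPM (0.69 ± 0.17, adjusted p = 0.0426, edgeR), as the 1 adjusted call, with an adjusted p of up to 0.152 where leaving out 1 lung ended it. Among 19 genes of lipoprotein assembly and secretion, all tested in the liver (median 0.03), 1 was lower, the lipid droplet gene Cidec, from 37 to 9.75 CPM (−1.92 ± 0.5, unadjusted p = 0.0026, edgeR). In the lung 13 were tested (median −0.14) and 1 passed the adjusted threshold, the carboxylesterase gene Ces1g, which fell from 11.1 to 3.9 CPM (−1.51 ± 0.4, adjusted p = 0.0497, edgeR). This call was lost without PS replicate 1 as well (adjusted p = 0.072, edgeR), and the adjusted p reached 0.145 without CS replicate 1. Of 17 other apolipoprotein genes, 15 were tested in the liver (median 0.06) and 1 was higher at the unadjusted threshold, Apoh, from 1912 to 2760 CPM (0.53 ± 0.22, unadjusted p = 0.0371, edgeR). In the lung 7 were tested (median 0.03) and 0 passed the adjusted or the unadjusted threshold in edgeR.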

How the data were processed

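Poly-A RNA libraries from liver and lung (150-base paired reads) were aligned by the authors to mm10 with HISAT2 2.0.5 and counted per gene with featureCounts 1.5.0-p3, per the labels. The deposited counts are not normalized. The deposited FPKM values are per gene length, and the authors also scaled them between libraries. Of the 54532 genes, 54409 were found in GENCODE M21 and gave lengths and GC content.

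Samples were grouped by the tissue and diet of their labels. Diets were compared within each tissue, and tissues over all 15 libraries, by edgeR 4.0.16's robust quasi-likelihood test on counts with TMM factors and filterByExpr (R 4.3.3), adjusted by Benjamini-Hochberg over all genes. Single members were also tested by exact permutation of mean log2(CPM + 0.5). The fits were tested on simulated data. No 2 libraries agreed within sampling noise. Each library is 1 mouse, by the labels. Intervals and errors cover these mice alone.

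The 10 members, the gene lists and the marker lists were chosen with earlier results of these data known. All members were named, with up to 3 called genes per list and tissue. Some called genes of the receptor and exporter list are not reported here. For the member that varied most in each tissue (mean log2 CPM of at least 1), the 3 genes most like it were named. The replicate numbers do not pair the diets, and the mouse pairs the tissues, as the same animal gave both. Correlations of deviations of the same mouse's liver and lung lay between −0.05 and 0.11. Other settings tried were the Wald test of DESeq2 1.42.0, its size factors in edgeR, no filter, a minimum of 10 counts in every library, limma 3.58.1 on log2(FPKM + 1) and log2(FPKM + 0.1), blocks, removal of length or GC trends (loess, span 0.3), and each library left out.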

Additional observations from a re-analysis of the deposited data

How the results depend on the processing

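In the liver the count of members at an unadjusted p of at most 0.05 was 0. It was 1 with DESeq2's Wald test (Lcat), 1 with the GC trend removed (Pltp) and 2 (Soat2 and Pltp) without CS replicate 2 and PS replicate 1, an alternative chosen after seeing the data. Leaving out 1 liver gave 0 to 2. In the lung the count at an adjusted p under 0.05 was 0, and 1 (Lcat) with DESeq2's Wald test and with no filter, and 0 to 1 when 1 lung was left out. Between the tissues every member but Pltp passed that threshold under every alternative run, leaving aside Apoa4 and Lipc, which had to differ. Pltp passed under some of them. For the difference of diet effects the count was 0 under every alternative run. With the replicate block the counts stayed at 0 in both diet comparisons, the all-gene count in the liver fell from 996 to 484, and Apoe in the liver turned to 0.01. Same-numbered livers correlated at −0.36 to −0.03 and lungs at −0.01 to 0.1, so the numbers give no pairing. With the mouse as replicate block Pltp did not pass between the tissues (adjusted p = 0.0719, edgeR), and the effect difference turned to 0.05 for Soat1 and 0.22 for Apoa1. Apoe in the liver turned to 0.03 with the GC trend removed and to 0.01 without CS replicate 2 and PS replicate 1, where Apoa4 turned to 0.06. When 1 library was left out, the liver difference of Apoe ran from −0.11 to 0.09, of Apoa1 from −0.34 to 0.12 and of Apoa4 from −0.68 to 0.06, each highest without CS replicate 2. The lung difference of Apoa1 ran from −3.22 to 2.77, and the effect difference of Soat1 from −0.3 to 0.21, of Apoa1 from −3.07 to 2.9 and of Apoa4 from −5.1 to 2.43, each highest without lung CS replicate 1. The Apoa4 values, from a gene at 0 in 4 lungs, depend on the prior count and give no size of effect. Apoa1 in the lung turned to 0.05 with log2(FPKM + 0.1). Pltp between the tissues turned to −0.04 within PS. The cause of these changes was not tested. Among values of single members, 254 under other settings and 419 with a library left out kept their direction and side of the threshold, 8 and 13 turned, and 9 and 6 newly passed. This threshold was on the unadjusted p for the liver diet comparison and on the adjusted p elsewhere. No diet difference or difference of effects passed it in the main fits, so no lost call could be counted for them. All-gene lung counts fell from 1542 to 23, 26, 0 and 9 without CS replicates 1, 2, 3 and PS replicate 2, and rose to 2949 without PS replicate 1. With 3 lungs a diet, counts of 0 to 30 limit Apoa4 and Lipc.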

Other observations

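Genes with a like pattern were sought for the member with the largest spread in each tissue, on log2 CPM and as a description over few libraries that share depth and base composition. Over the 9 livers this was Apoa4 (SD 0.91). Of 10795 genes compared, Mettl21a (r = 0.949), Klhl26 (r = 0.948) and Rxrg (r = 0.944), which encodes a retinoid X receptor, were most like it. Over the 6 lungs it was Apob (SD 1.04). Of 14021 genes compared, Nsd2 (r = 0.971), L3mbtl3 (r = 0.969) and Edem1 (r = 0.967) were most like it.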
